A study of Mus musculus with 22 samples.

Results

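The urea cycle genes were described here in livers of mice with and without Tcf7l2, the gene of a transcription factor that partners with beta-catenin in Wnt signalling. All array probes named for Cps1, Nags, Slc25a15, Otc, Ass1, Slc25a13, Asl or Arg1 were taken whatever their values, which gave 12 of the 41174 probes that are not controls, for 8 genes. These are 8 of the 28095 gene names on the array. RNA of 22 liver samples from C57BL/6 mice was labelled with Cy3 and hybridised, 1 array per sample, together with a Cy5-labelled common mouse reference RNA from Stratagene, so that every value is a log2 ratio of liver over reference.

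The groups ran as follows. Newborn livers gave 4 samples of Tcf7l2-/- and 4 of Tcf7l2+/+ mice, all of which received 50 ul of 10% glucose under the skin and were examined at 5 h. Fasted adult livers gave samples of 4 knockouts, written LTCF4KO and Tcf7l2loxp/loxp;SA-CreERT2, and 4 Tcf7l2loxp/loxp controls, which had been without food for 24 h. Fed adult livers gave samples of 3 such knockouts and 3 such controls that ate freely. Knockout and control adults alike had received tamoxifen at 3 weeks of age, 1 to 2 months earlier. The controls carried no CreERT2, so the presence of the recombinase and the loss of Tcf7l2 cannot be told apart in adults. The labels spell out neither the promoter that drives CreERT2 nor the part of Tcf7l2 that is removed.

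The urea cycle turns toxic ammonia into urea and runs in hepatocytes, mostly those near the portal vein. Its opening steps lie in the mitochondrion, where Cps1 makes carbamoyl phosphate, Nags makes the N-acetylglutamate that Cps1 needs as its activator, and Otc joins carbamoyl phosphate to ornithine to give citrulline. Slc25a15 carries ornithine in and citrulline out, and Slc25a13 brings out the aspartate that gives the other nitrogen. In the cytosol Ass1 makes argininosuccinate, Asl splits it into arginine and fumarate, and Arg1 cuts arginine into urea and ornithine. Ammonia that escapes the cycle is taken up near the central vein, a zone that depends on Wnt signalling, where Glul makes glutamine and Oat breaks down ornithine.

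Sequences are shown for the probes of 3 genes whose values the results turn on and whose mapped span on mm9 exceeded the 60 bases of the probe, so that each reads joined parts of a transcript. The Ass1 probe A_52_P361165 spans 1640 bases at chr2:31374279-31375918 on the plus strand. Its last 20 bases, in capitals, are shared with the other Ass1 probe, so that these probes read overlapping sequence and are not independent. The Otc probe A_51_P126563 spans 23648 bases at chrX:9853843-9877490 on the plus strand, and the Asl probe A_51_P174645 spans 586 bases at chr5:130487964-130488549 on the minus strand.
Ass1 A_52_P361165: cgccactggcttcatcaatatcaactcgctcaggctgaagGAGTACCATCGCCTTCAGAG
Otc A_51_P126563: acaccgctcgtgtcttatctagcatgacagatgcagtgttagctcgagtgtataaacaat
Asl A_51_P174645: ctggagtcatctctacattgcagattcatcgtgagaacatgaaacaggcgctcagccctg

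The other probes lay on mm9 in a single block, per the array annotation. Cps1 was read at chr1:67277466-67277525, Slc25a15 at chr8:23487872-23487931, Slc25a13 at chr6:5991482-5991541 and Arg1 at chr10:24636194-24636253. Nags was read by A_51_P445574 at chr11:102010718-102010776 and A_52_P487436 at chr11:102009515-102009574. Otc had 2 further probes, A_52_P286360 at chrX:9897267-9897326 and A_52_P369776 at chrX:9893244-9893303, and the second Ass1 probe, A_51_P338713, lay at chr2:31375899-31375957. Which exon or untranslated part each of these covers was not analysed here. Where a gene had several probes, the brightest in liver is called its lead probe.

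The RefSeq promoter table of assembly GRCm38.p6 held the 250 bases before the start for 5 of the 8 genes, 6 promoters in all. They were searched on both strands for CTTTGAT and CTTTGAA, core letters to which TCF factors are known to bind, and for TGACGTCA, the cyclic AMP response element. At least 1 of the TCF letter strings stood in 1 promoter, that of Nags at chr11:102145263-102145512 on the plus strand, beside 7.48% of all 32851 promoters. TGACGTCA stood in none of the 6, beside 1.55% of all promoters. The Nags promoter is shown because it alone held a match, in capitals from base 47 of the window, where the minus strand reads CTTTGAT. A match describes the letters and is not a binding site.
Nags promoter: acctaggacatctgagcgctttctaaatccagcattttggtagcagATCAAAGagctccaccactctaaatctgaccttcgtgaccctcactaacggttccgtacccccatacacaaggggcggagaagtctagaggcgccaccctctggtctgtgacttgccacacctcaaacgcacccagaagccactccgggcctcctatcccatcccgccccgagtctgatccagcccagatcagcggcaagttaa

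The liver label was borne out by its markers, with 6 of 6 hepatocyte markers on the array well above background on every array. A spot is called well above background where the scanner software found its liver signal clearly over the local background. The liver channel was so on 50.2% to 64.4% of probes on newborn arrays and 50.2% to 62.0% on fasted arrays, and on 22.8% to 31.2% on fed arrays, so that weak probes were the least certain in fed livers. Newborn knockouts and wild types lay on separate slides, so slide and genotype cannot be told apart there, and fasted and fed arrays also lay on separate slides. Each fasted and each fed slide held both genotypes, but the fed slides were not balanced. Slide 5 held fed knockouts 1 and 2 and fed control 1, and slide 6 held fed knockout 3 and fed controls 2 and 3. Newborn wild type 1 and newborn knockouts 1 and 4 stood apart on the first principal component of the newborn arrays (45.9% of the variance), and fasted knockouts 1 and 2 stood apart on the second component of the adult arrays (10.7%). The brightest Tcf7l2 probe read -1.85 to -1.57 in newborn knockouts and -1.28 to -0.32 in wild types, a log2 difference of -0.87 ± 0.19 (SE) that missed the threshold of 0.05 (limma adjusted p = 0.0612). Another Tcf7l2 probe was not lower in newborn knockouts, at 0.08 ± 0.12 (limma adjusted p = 0.861), and a further one was not tested there. The adult knockouts showed no lower value of the brightest probe, at 0.35 ± 0.17 when fasted (limma adjusted p = 0.52) and 0.21 ± 0.20 when fed (limma adjusted p = 1), and whether it lies in the removed part is not known, so every adult direction below rests on the labels. As each value is from bulk tissue, fewer hepatocytes and less RNA per hepatocyte cannot be told apart.

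Cps1, the entry enzyme, had the highest liver-over-reference ratios of the 8 genes, with liver signals of 15733 to 182639 units against reference signals of 107 to 457. In newborns its log2 ratio was 9.79, 9.68, 9.68 and 9.98 in knockouts 1 to 4, against 10.03, 9.98, 10.04 and 10.33 in wild types 1 to 4. Fasted adults gave 10.16, 10.29, 10.70 and 10.65 in knockouts and 10.14, 10.53, 10.58 and 10.74 in controls. Fed adults gave 11.39, 10.99 and 11.32 in knockouts and 10.11, 10.41 and 10.32 in controls. The 3 fed knockouts therefore stood above all other 19 arrays, the 4 newborn knockouts lay just under the 4 wild types, and the fasted groups overlapped. The reference spot of fed control 1 was not well above background, so the ratio of that array is the least certain of the set.

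Nags, whose product switches Cps1 on, also had its highest mean in fed knockouts. The newborn ratios were 6.06, 6.02, 5.83 and 6.09 in knockouts and 6.47, 6.35, 5.98 and 5.93 in wild types. In fasted livers they were 7.05, 6.99, 7.00 and 7.11 in knockouts and 6.78, 7.01, 7.06 and 7.15 in controls, and in fed livers 7.78, 7.49 and 7.31 in knockouts and 7.32, 7.00 and 7.12 in controls. Every adult array lay above every newborn array, and in fed livers only knockout 3 reached into the range of the controls. The second Nags probe, unlike the lead probe, separated the fed groups, at 5.22, 5.17 and 4.86 in knockouts and 4.50, 4.76 and 4.595 in controls.

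Slc25a15, the ornithine carrier, was highest in fasted livers. Its ratio was 3.73, 4.17, 4.27 and 4.18 in fasted knockouts and 4.85, 4.25, 4.04 and 3.55 in fasted controls. Fed knockouts had 3.50, 3.75 and 3.18 and fed controls 2.21, 2.97 and 3.30, where the liver spot of control 1 was not well above background. Newborn knockouts had 2.87, 2.81, 3.15 and 3.59 and newborn wild types 2.84, 3.01, 2.47 and 2.79. Knockouts and controls or wild types overlapped at each age and feeding state.

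Otc showed the widest gap between newborn and adult group means of the 8 genes. Its lead probe read 4.78, 4.87, 5.70 and 4.55 in newborn knockouts and 4.88, 5.55, 6.09 and 5.64 in newborn wild types. Fasted knockouts read 8.62, 8.35, 8.63 and 8.54 and fasted controls 8.20, 8.56, 8.53 and 8.79, while fed knockouts read 9.17, 8.72 and 8.58 and fed controls 8.19, 8.31 and 8.14. Newborn and adult ranges were far apart, the fed groups were separate and the newborn and fasted groups overlapped. The Otc reference spot was not well above background on any newborn array or on fed control 1, so newborn ratios of this probe are set against a reference near its floor. The second Otc probe, A_51_P126563, gave a smaller gap in the same direction, at 4.30, 3.87, 4.49 and 4.07 in newborn knockouts and 4.41, 4.69, 4.91 and 4.91 in newborn wild types, with adult arrays at 5.93 to 7.13. The remaining Otc probe was dim, well above background on 1 of 8 newborn, 8 of 8 fasted and 1 of 6 fed arrays, and no fold change is given for it.

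Ass1, which makes argininosuccinate, separated fed from fasted livers. Fasted livers had 3.55, 3.71, 3.89 and 4.04 in knockouts and 3.58, 3.79, 3.64 and 3.49 in controls. Fed livers had 5.91, 6.11 and 5.83 in knockouts and 5.42, 5.34 and 5.03 in controls. Newborn knockouts lay between, at 4.42, 4.19, 4.45 and 4.51, and newborn wild types 2 to 4, at 4.31, 3.99 and 4.45, reached into the fasted range, where the spot of wild type 1 was marked as faulty by the scanner software and left out. Fed knockouts stood above fed controls and both above all other arrays, while the newborn groups overlapped, as did the fasted groups.

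Slc25a13, the aspartate carrier, and Asl varied least between the 6 groups. Group means of Slc25a13 ran from 4.12 in newborn knockouts to 4.46 in newborn wild types. In newborns it read 3.88, 4.265 and 4.22 in knockouts 2 to 4, the spot of knockout 1 being left out, and 4.33, 4.60, 4.272 and 4.65 in wild types, so that the groups touched without overlap. Asl read 3.92, 3.43, 4.44 and 3.53 in fasted knockouts and 3.37, 3.29, 3.24 and 3.35 in fasted controls, and 3.72, 3.87 and 4.02 in fed knockouts and 3.56, 3.59 and 3.61 in fed controls. Both adult knockout groups of Asl lay above their controls without overlap, with fasted knockouts 1 and 3 the highest of their group. In newborns Asl overlapped, at 3.78, 3.08, 3.39 and 4.17 in knockouts and 3.60, 3.36, 3.17 and 3.52 in wild types.

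Arg1, the last enzyme, was highest in fed livers, at 7.23, 7.36 and 7.01 in knockouts and 7.14, 6.94 and 6.50 in controls. Fasted livers had 6.44, 5.46, 5.68 and 5.75 in knockouts and 5.35, 6.73, 5.58 and 5.90 in controls. Newborn livers had 6.38, 6.28, 6.07 and 6.58 in knockouts and 6.26, 6.32, 6.13 and 6.15 in wild types. Each pair of genotypes overlapped. The highest fasted values, of knockout 1 and control 2, came from spots that were dim in both colours, with reference signals of 315 and 504 units beside 3414.5 to 7079 on the other 6 fasted arrays.

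**Figure D1:**
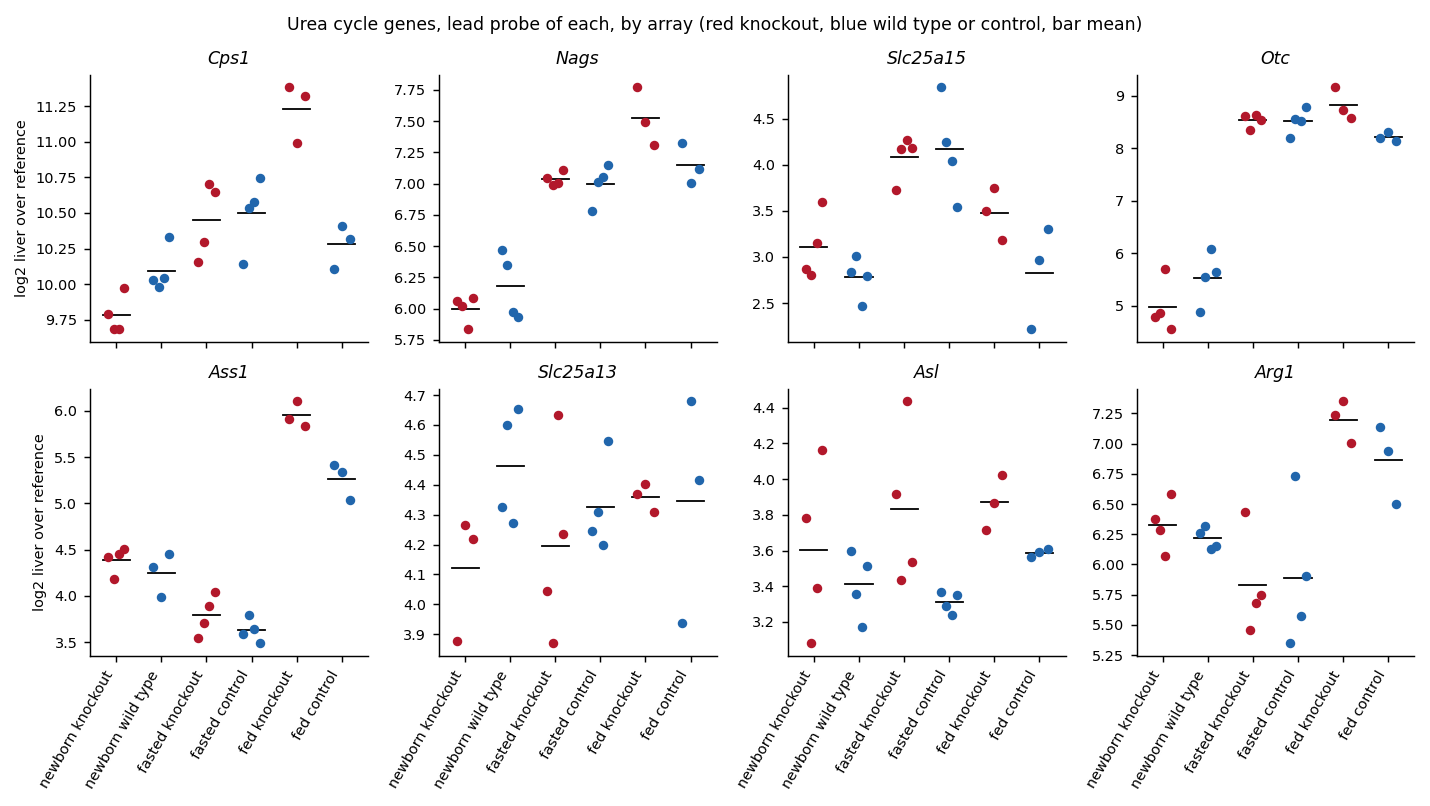
Log2 liver over reference of the lead probe of each of the 8 urea cycle genes on every array, by group, with the group mean as a bar (red knockouts, blue wild types or controls; each panel has its own vertical scale, which does not start at 0). Fed knockouts have the highest mean for Cps1, Nags, Otc, Ass1, Asl and Arg1, and newborn Otc lies far below adult Otc.

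In newborn livers no urea cycle probe passed in limma. Of 11 tested probes 0 passed at an adjusted p under 0.05, beside 1.15% of all 24411 probes tested, and 2 passed at an unadjusted p under 0.05, beside 12.7%. The differences lay above 0 for 6 probes, beside 44.6% of all probes, with a median of 0.12 (all probes -0.03). Knockout and wild-type ranges did not overlap for 2, beside 8.84% of all probes: Cps1 at -0.31 ± 0.12 (SE, limma adjusted p = 0.3) and Slc25a13 at -0.34 ± 0.15 (limma adjusted p = 0.403), both lower in knockouts, beside 3.7% of all probes in that direction. Otc stood at -0.57 ± 0.29 and -0.55 ± 0.17 on its brighter probes (limma adjusted p = 0.479 and 0.166), with overlapping ranges. The second Nags probe stood at 1.13 ± 0.80, where wild type 1 read -0.074 at background and the other 3 wild types 3.855 to 4.109. Kupffer cell markers, of the liver's macrophages, were lower beside these, with 1 of 6 passing, a median of -0.69 and array means of 3.97 to 4.39 in newborn knockouts and 4.67 to 4.88 in wild types. Endothelial markers lay below 0 for 5 of 5 (median -0.685), as did stellate cell and portal fibroblast markers (5 of 5, median -0.426), with none passing, and the part of these markers was not tested.

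The liver channel alone, scaled to the 75th percentile of each array, did not show the Cps1 difference in newborns. There Cps1 differed by -0.02 ± 0.22, while the reference channel, hybridised with 1 common RNA throughout, differed by 0.60 ± 0.22 (limma adjusted p = 0.113). Single channels came from processed signals, which the software had dye-normalized, and the ratio from median signals. Changes of the single channels therefore do not add up to the change of the ratio. The lead Nags probe had a reference difference of 0.84 ± 0.15 that passed (limma adjusted p = 0.00433). The Otc differences were as large in the liver channel alone, at -0.61 ± 0.25 and -0.69 ± 0.23 (limma adjusted p = 0.19 and 0.0982). Over all probes the reference channel alone passed for 16.4% between newborn knockout and wild-type arrays. With the processed signals of the scanner software, Cps1 passed at -0.63 ± 0.13 (limma adjusted p = 0.0482).

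In fasted livers no urea cycle probe passed either. Of 12 tested probes 0 passed at an adjusted p under 0.05, beside 0.434% of all 25135 probes, and 1 passed at an unadjusted p under 0.05, beside 10.4%. Differences lay above 0 for 6 probes, beside 49.4% of all probes, and the median was 0.00. Asl was the exception in size, at 0.52 ± 0.18 (SE, limma adjusted p = 0.3), the only probe with separate ranges, beside 6.26% of all probes in either direction and 2.69% higher. Within slide 3 its difference was 0.35 and within slide 4 it was 0.69. In the liver channel alone Asl differed by 0.12 ± 0.19, and the high ratios of knockouts 1 and 3 came from spots with reference signals of 918.5 and 2227 units, against 7865 to 11850 on the 4 control arrays. With outlying local backgrounds kept, all 12 urea cycle probes lay above 0 in fasted knockouts, with a median of 0.952 beside 0.129 over all probes, and none passed. In that setting the median log2 liver signal was 11.43 and 10.46 on fasted controls 1 and 2. With outlying backgrounds replaced it was 6.88 and 6.71 there. On fasted knockouts 1 to 4 it was 6.46, 6.78, 6.73 and 6.75 either way. The part of these 2 control arrays was not tested. Pancreas markers had array means of -0.05 to 4.55 in fasted knockouts and -0.06 to 0.28 in fasted controls, and their part was not tested.

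Fed livers gave the same direction for every probe, although none passed. Of 12 tested probes 0 passed at an adjusted p under 0.05, beside 0.215% of all 25135 probes, and 7 passed at an unadjusted p under 0.05, beside 6.84%. All 12 differences, the dim Otc probe included, lay above 0, beside 56% of all probes, with a median of 0.44 (all probes 0.03). Ranges did not overlap for 6, each higher in knockouts, beside 10.9% of all probes in either direction and 6.85% higher. The members share arrays and are not independent of each other.

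Cps1 had the largest difference. It averaged 11.23 ± 0.21 in fed knockouts and 10.28 ± 0.15 in fed controls (SD, n = 3 each), which is 0.95 ± 0.19 (SE) on the log2 scale, or 1.94-fold, with limma adjusted p = 0.0723. With the slide as a fixed block Cps1 passed, at 1.02 ± 0.14 (limma adjusted p = 0.019), and within slides 5 and 6 its difference was 1.08 and 0.96. Ass1 followed at 0.69 ± 0.15 (limma adjusted p = 0.13), with 0.59 on slide 5 and 0.65 on slide 6, and at 0.41 ± 0.12 on its second probe (limma adjusted p = 0.356). Otc stood at 0.61 ± 0.17 on its lead probe (limma adjusted p = 0.319), with 0.76 on slide 5 and 0.36 on slide 6. The second Otc probe stood at 0.48 ± 0.17 (limma adjusted p = 0.505). Values within a fed slide rest on a single array of control (slide 5) or knockout (slide 6).

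Of the other members, the Nags probes stood at 0.38 ± 0.14 and 0.47 ± 0.13 (limma adjusted p = 0.571 and 0.287). Slc25a15 stood at 0.65 ± 0.32, a wide error that includes the dim spot of control 1 (limma adjusted p = 0.767). Its difference was 1.41 on slide 5 and 0.04 on slide 6. Arg1 stood at 0.34 ± 0.32 and Asl at 0.28 ± 0.20, and Slc25a13, the carrier for aspartate, was at 0.02 ± 0.20. The Slc25a13 difference was 0.447 on slide 5 and -0.239 on slide 6.

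**Figure D2:**
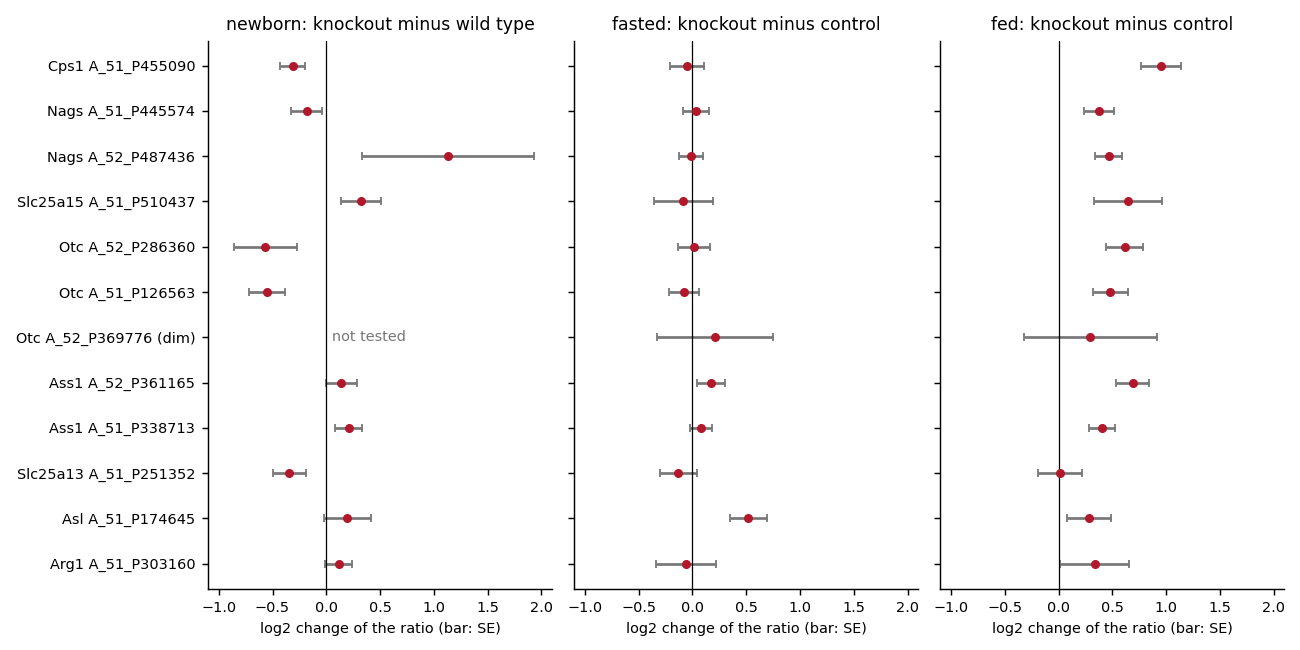
Change of the log2 ratio, knockout minus wild type or control, for each of the 12 urea cycle probes in newborn, fasted and fed livers (points, with SE as bars). In fed livers all 12 points lie above 0, up to 0.95 for Cps1, whereas newborn and fasted points fall on both sides.

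Set beside the ratio, most fed differences were smaller in the liver channel alone, though those of Asl (0.32) and Slc25a13 (0.06) were slightly larger. There 11 of 12 probes lay above 0, the median was 0.22 and the lowest limma adjusted p was 0.883. Cps1 read 8.10, 7.53 and 8.44 in fed knockouts and 7.36, 7.47 and 7.55 in fed controls on that scale, so that knockout 2 lay within the controls, and its difference was 0.56 ± 0.40. Ass1 stood at 0.37 ± 0.22 and 0.29 ± 0.20, while Otc stood at 0.12 ± 0.15 on its lead probe and 0.03 ± 0.15 on the second probe. With the processed signals of the scanner software the fed difference of Cps1 was 0.20. General markers of hepatocytes moved with the cycle in the ratio, with 6 of 6 above 0, a median of 0.38, none passing, and array means of 6.85 to 7.17 in fed knockouts and 6.26 to 6.81 in fed controls. Kupffer cell markers lay above 0 for 6 of 6 with a median of 0.64, and array means were 4.07 to 4.80 in fed knockouts and 3.57 to 3.99 in fed controls. Their part in the result was not tested.

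The knockout effects were then compared between fasted, fed and newborn livers by testing the difference itself. Fasted minus fed, 0 of 12 probes passed, beside 0.0119% of all probes, and 1 lay above 0, beside 46.3% of all probes, with a median of -0.44 (all probes -0.02). With outlying local backgrounds kept that direction turned, with 10 of 12 above 0 and a median of 0.511 (all probes 0.127), and none passed. As given above, fasted controls 1 and 2 had raised liver signals in that setting, with array medians of 11.43 and 10.46. The difference for Cps1 was -1.001 ± 0.25 (SE, limma adjusted p = 0.524), in the liver channel alone it was -0.45 ± 0.52, and with local backgrounds kept it was 0.168. For Asl it was 0.24 ± 0.27, the only one above 0. Newborn minus fasted, 0 of 12 passed, beside 0.807% of all 27513 probes, with 4 above 0, beside 47.6% of all probes, and a median of -0.22. The median was -0.908 with local backgrounds kept (2 of 12 above 0) and 0.008 in the liver channel alone (6 of 12 above 0). With local backgrounds kept, newborn wild type 3 and newborn knockout 1 also had raised array medians of liver signal. These were 9.82 and 9.92, beside 7.16 and 7.11 with outlying backgrounds replaced.

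Newborn minus fed, 2 of 12 probes passed, both lower, beside 0.705% of all probes in either direction and 0.214% lower, and 1 lay above 0, beside 43.8%. The knockout effect on Cps1 was lower in newborn than in fed livers, at -1.27 ± 0.23 (SE, limma adjusted p = 0.00679), and it passed with each of 14 arrays left out in turn, at adjusted p from 0.00657 to 0.0212. That of the second Otc probe was -1.03 ± 0.24 (limma adjusted p = 0.0477), a call that held in 4 of 14 such omissions, with adjusted p up to 0.135 when fed control 3 was left out. The lead Otc probe gave -1.18 ± 0.35 and did not pass (limma adjusted p = 0.155). In the liver channel alone neither gene passed, Cps1 at -0.58 ± 0.47 (limma adjusted p = 0.642) and the second Otc probe at -0.71 ± 0.27 (limma adjusted p = 0.121), and neither passed with the processed signals or with outlying local backgrounds kept. Newborn genotypes lay on separate slides, so this difference includes any difference between those slides. Without the 3 newborn arrays that stood apart, Cps1 gave -1.39 (limma adjusted p = 0.0234) and the second Otc probe -1.14 (limma adjusted p = 0.0716).

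More urea cycle probes passed between feeding states than between genotypes, as did more of all probes. In knockouts, fasted minus fed, 6 of 12 probes were lower and 0 higher, beside 35.6% of all probes in either direction, 15.9% lower and 19.6% higher. In controls 3 were lower and 1 higher, beside 37.9% in either direction, 15.7% lower and 22.2% higher. Both comparisons touch the arrays already used for the knockout effects. Because fasted and fed arrays lay on separate slides, feeding and slide cannot be told apart, and the reference channel alone passed for 73.2% of all probes in knockouts and 74.7% in controls. The 75th percentile that scales the liver channel alone lies near background on fed arrays, with 22.8% to 31.2% of probes well above background. On fasted arrays 50.2% to 62.0% were well above it, so fasting changes in that channel include any such shift of scale.

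In the ratio and in the liver channel alone, Ass1 was lower in fasted than in fed livers of both genotypes. Its lead probe averaged 3.80 ± 0.22 in fasted knockouts and 5.95 ± 0.14 in fed knockouts (SD, n = 4 and 3), a log2 change of -2.15 ± 0.14 (SE, limma adjusted p = 1.12e-06), or 4.45-fold. In controls it averaged 3.63 ± 0.13 when fasted and 5.26 ± 0.20 when fed, a change of -1.64 ± 0.14 (limma adjusted p = 7.97e-06). The second probe changed by -1.60 ± 0.11 in knockouts and -1.27 ± 0.11 in controls. In the liver channel alone the lead and second probes changed by -1.24 and -1.44 in knockouts and by -1.06 and -1.44 in controls, each past the threshold (limma adjusted p from 9.34e-05 to 0.000949). Ass1 passed with each array left out in turn. The reference channel alone of its lead probe was higher in fasted livers, by 0.86 ± 0.11 in knockouts and 0.94 ± 0.11 in controls (limma adjusted p = 1.61e-05 and 6.22e-06). On the second probe that channel stood at 0.235 and 0.085 and did not pass. Before scaling, liver signals of the lead probe were 55815 to 114895 units on fasted and 34476 to 81794 on fed arrays.

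Arg1 was lower in fasted livers too, but less firmly. The change was -1.37 ± 0.30 in knockouts (SE, limma adjusted p = 0.00388), with separate ranges, and -0.97 ± 0.30 in controls (limma adjusted p = 0.0218), with overlapping ranges. In controls the Arg1 call was lost without fasted control 1 (-0.79), fasted control 3 (-0.87), fed control 1 (-0.83) or fed control 2 (-0.93), with limma adjusted p from 0.0558 to 0.0868. On the scale of the liver channel alone Arg1 stood at -0.33 ± 0.50 in knockouts and -0.58 ± 0.50 in controls, and neither passed.

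Of the mitochondrial steps, Cps1, Nags and Otc passed in knockouts only, which is not a test of the genotypes against each other: that test is the fasted-minus-fed difference above, in which no probe passed. Cps1 changed by -0.78 ± 0.17 in knockouts (SE, limma adjusted p = 0.00408) and stood at 0.22 ± 0.17 in controls (limma adjusted p = 0.336). By the liver channel alone Cps1 stood at -0.40 ± 0.37 in knockouts and 0.05 ± 0.37 in controls, and its reference channel alone stood at 1.496 ± 0.68 in knockouts (limma adjusted p = 0.0635) and 2.074 ± 0.68 in controls (limma adjusted p = 0.0145). With the processed signals Cps1 was lower in fasted livers of both genotypes, at -1.52 in knockouts and -1.48 in controls (limma adjusted p = 0.00605 and 0.00686). The lead Nags probe changed by -0.49 ± 0.13 in knockouts (limma adjusted p = 0.0108), a call lost without fed knockout 1 (-0.36, limma adjusted p = 0.0556) or without fasted knockouts 1 and 2 (-0.47, limma adjusted p = 0.0574), and stood at -0.15 ± 0.13 in controls. By the liver channel alone that Nags probe passed in both genotypes, at -1.42 ± 0.20 in knockouts and -1.01 ± 0.20 in controls (limma adjusted p = 0.000194 and 0.00105). With outlying local backgrounds kept, neither call held in knockouts, with Cps1 at -0.568 (limma adjusted p = 0.339) and the lead Nags probe at -0.4 (limma adjusted p = 0.529).

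The second Otc probe changed by -0.84 ± 0.16 in knockouts (SE, limma adjusted p = 0.00125) and stood at -0.29 ± 0.16 in controls (limma adjusted p = 0.163). With local backgrounds kept its call in knockouts was lost (-0.736, limma adjusted p = 0.278). The lead Otc probe did not pass in either, at -0.29 ± 0.16 in knockouts and 0.31 ± 0.16 in controls. By the liver channel alone both of these Otc probes were lower in fasted livers of both genotypes, from -0.51 to -0.70, and each passed (limma adjusted p from 0.00144 to 0.0118), so that the direction for the lead probe in controls turned between the measures. The dim Otc probe went the other way in that channel, higher in fasted knockouts (limma adjusted p = 0.0166). It was well above background on 1 of 3 fed knockout arrays, so no size is given.

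In the ratio Slc25a15 was the member that rose with fasting. In controls it averaged 4.17 ± 0.54 when fasted and 2.83 ± 0.56 when fed (SD, n = 4 and 3), a change of 1.34 ± 0.29 (SE, limma adjusted p = 0.00336), with separate ranges, and it passed with each array left out. The liver channel alone gave 0.90 ± 0.29 (limma adjusted p = 0.02). With outlying local backgrounds kept, the change in controls was -0.74 (limma adjusted p = 0.437). In that setting fasted controls 1 and 2 had raised array medians of liver signal, at 11.43 and 10.46. In knockouts Slc25a15 was at 0.61 ± 0.29 and did not pass (limma adjusted p = 0.123). Slc25a13 and Asl did not pass in either genotype. Hepatocyte markers moved with fasting as well, with 6 of 6 lower in knockouts and in controls and medians of -1.78 and -1.29. Of 6 Kupffer cell markers 2 were higher and 1 lower in fasted knockouts, and 3 higher and 0 lower in fasted controls. Of 5 endothelial markers 3 were higher and 2 lower in fasted knockouts, and 3 higher and 0 lower in fasted controls. Over all probes 15.9% were lower and 19.6% higher in fasted knockouts, and 15.7% lower and 22.2% higher in fasted controls. The part of these markers in the results was not tested.

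**Figure D3:**
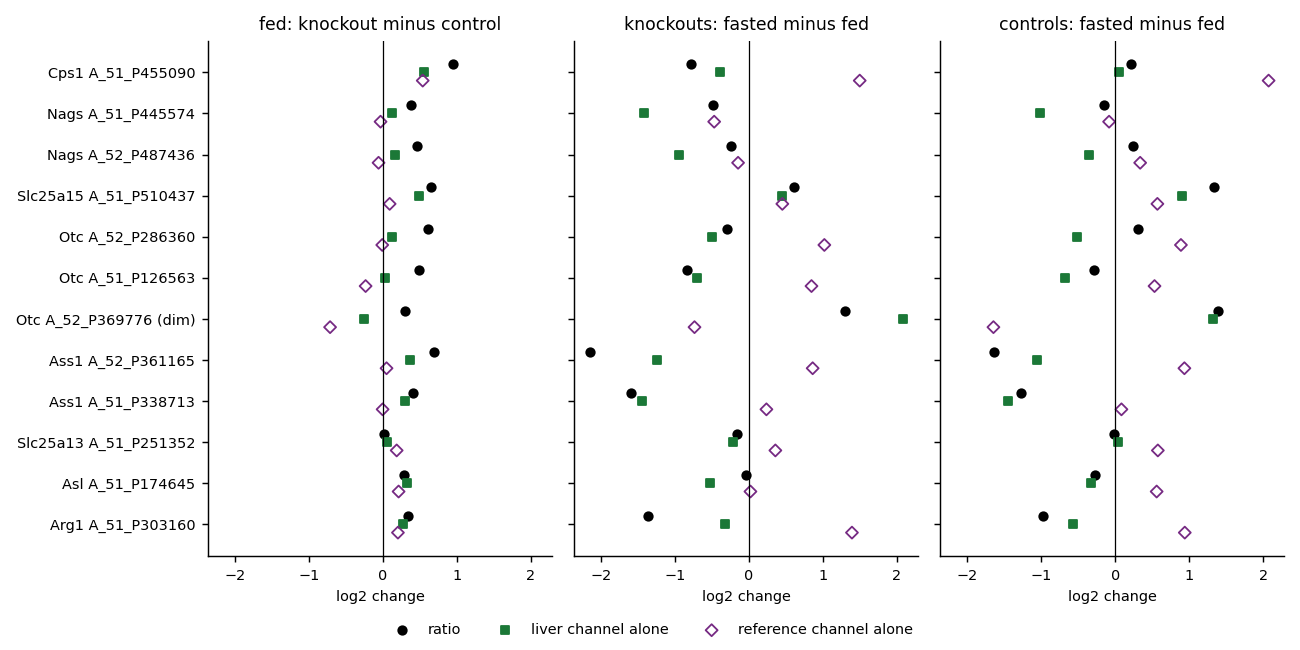
Log2 change of the ratio (black circles), of the liver channel alone (green squares) and of the reference channel alone (open purple diamonds) for each urea cycle probe, for fed knockouts minus fed controls and for fasted minus fed livers of each genotype. Ass1 lies well below 0 in the fasting panels by ratio and by liver channel. The reference channel lies there at 1.496 and 2.074 for Cps1 and at 0.86 and 0.936 for the lead Ass1 probe. The probe marked dim has values near background.

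Genes that feed the cycle or use its ornithine were set beside it, in a list of 24 genes of nitrogen supply and ornithine use. The list was chosen with earlier results of these data known, so its counts describe it and are no independent test. In fasted knockouts 3 of 24 tested genes fell and 0 rose, beside 0.434% of all probes that passed in either direction. In fed knockouts 2 of 24 fell and 0 rose, beside 0.215% of all probes. Oat, which breaks down ornithine, averaged -1.15 ± 0.45 in fasted knockouts and 2.71 ± 0.24 in fasted controls, a change of -3.86 ± 0.23 (SE, limma adjusted p = 7.43e-07), and in fed livers it changed by -3.89 ± 0.26 (limma adjusted p = 1.1e-05). Glul, which makes glutamine from ammonia, averaged 0.42 ± 0.13 in fed knockouts and 4.24 ± 0.50 in fed controls, a change of -3.82 ± 0.35 (limma adjusted p = 0.000177), and it changed by -2.94 ± 0.31 in fasted livers. Rhbg, an ammonium transporter, changed by -2.80 ± 0.44 in fasted livers (limma adjusted p = 0.00997). In fed livers Rhbg averaged 1.498 ± 0.18 in knockouts, where it was well above background on 0 of 3 arrays so that this level is only a bound, and 3.87 ± 1.23 in controls, and the difference did not pass (limma adjusted p = 0.121). The median over the list was 0.01 in fasted and 0.04 in fed livers.

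In newborn knockouts 3 of 23 tested genes of this list fell and 0 rose, beside 1.15% of all probes that passed in either direction, with a median of 0.03. Rhbg averaged 0.93 ± 0.25 in newborn knockouts and 3.96 ± 0.58 in wild types, a change of -3.03 ± 0.26 (SE, limma adjusted p = 0.00225). Aqp9, a channel for glycerol and urea, changed by -1.32 ± 0.16 (limma adjusted p = 0.00714) and Agmat, which makes urea and putrescine from agmatine, by -0.64 ± 0.12 (limma adjusted p = 0.0386). Oat was low in newborns of both genotypes, at -0.15 ± 0.14 in knockouts and -0.12 ± 0.04 in wild types, and the knockout effect on Oat differed between newborn and fasted livers by 3.83 ± 0.27 (limma adjusted p = 3.8e-08) and between newborn and fed livers by 3.86 ± 0.30 (limma adjusted p = 3.37e-07). For Glul those differences were 2.73 ± 0.47 and 3.61 ± 0.51 (limma adjusted p = 0.00431 and 0.000817).

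**Figure D4:**
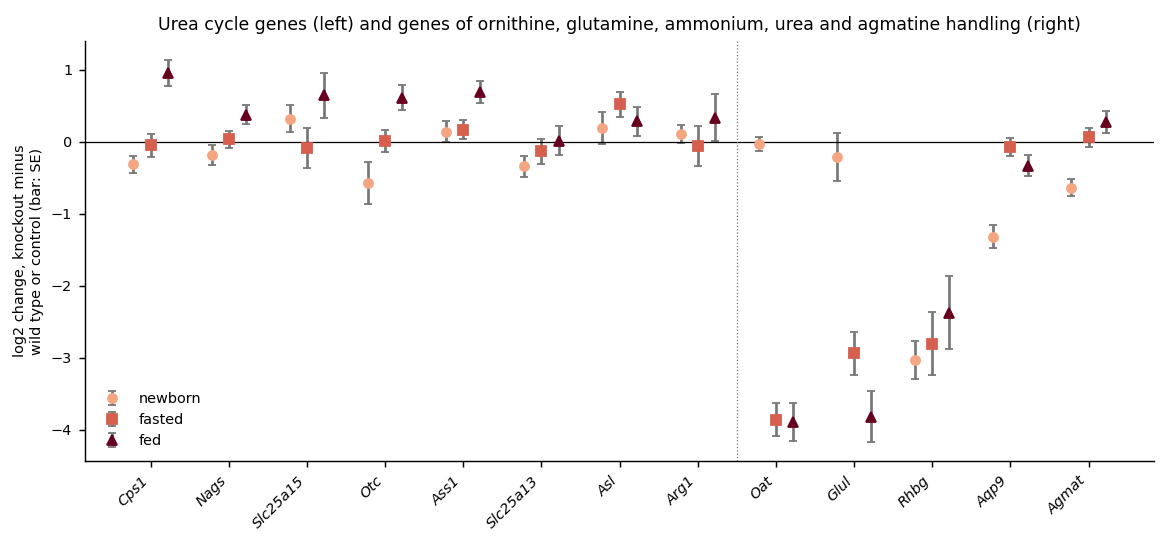
Knockout change of the log2 ratio (points, with SE as bars) in newborn, fasted and fed livers for the lead probes of the 8 urea cycle genes, left of the dotted line, and for the 5 listed genes of nitrogen supply and ornithine use that passed in a knockout comparison, right of it. The cycle genes lie between -0.57 and 0.95, whereas adult Oat and Glul lie between -3.89 and -2.94.

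With fasting 2 of 24 genes of this list were higher and 9 lower in knockouts, and 3 were higher and 9 lower in controls, beside 35.6% and 37.9% of all probes that passed in either direction. Aldh18a1, which makes the pyrroline carboxylate from which ornithine and proline are built, changed by -3.48 ± 0.28 in knockouts and -3.68 ± 0.28 in controls, though 2 of 3 fed arrays of each genotype measured it well above background. Gls2, the liver glutaminase that releases ammonia, changed by -1.04 ± 0.12 in knockouts, Gpt, alanine transaminase, by -0.61 ± 0.09 in controls, and Prodh, which breaks down proline, by -1.09 ± 0.14 in knockouts and -0.92 ± 0.14 in controls. Slc7a2, an arginine and ornithine transporter, was higher in fasted livers by 1.02 ± 0.37 in knockouts and 1.52 ± 0.37 in controls. Glul was higher in fasted knockouts by 1.18 ± 0.33, and Odc1, which turns ornithine into putrescine, was higher in fasted controls by 0.59 ± 0.20. Slc25a2, another ornithine carrier, also passed as higher in fasted controls, but it was well above background on 0 of 3 fed control arrays and no size is given. The highest limma adjusted p among these genes was 0.0435.

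Among 11 genes of factors and receptors known to act on urea cycle genes, none passed in a knockout comparison, with medians of -0.21 in newborn (10 tested), 0.07 in fasted and -0.01 in fed livers. With fasting 2 rose and 3 fell in knockouts, and 2 rose and 2 fell in controls, beside 35.6% and 37.9% of all probes that passed in either direction. Foxa3, a liver forkhead factor, rose by 1.83 ± 0.29 in knockouts and 2.61 ± 0.29 in controls, and Cebpb, induced by glucagon and glucocorticoids, by 1.28 ± 0.28 and 0.78 ± 0.28. Gcgr, the glucagon receptor, changed by -0.65 ± 0.18 in knockouts and -0.58 ± 0.18 in controls, and Cebpa, which drives Cps1, by -0.74 ± 0.15 and -0.42 ± 0.15.

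Across the 14 adult arrays the 8 lead probes did not form a single pattern: their 28 pairwise Pearson correlations ran from -0.70 to 0.85 with a median of 0.26 and 23 above 0, on arrays that share slides and feeding state. The mean of the 8 lead probes was 6.63, 6.59 and 6.45 in fed knockouts and 5.99, 6.16 and 6.05 in fed controls, and it was 5.94, 5.78, 6.16 and 6.01 in fasted knockouts and 5.81, 6.06, 5.86 and 5.94 in fasted controls. The fed knockouts stood above all other adult arrays. Of 17023 genes, those whose ratio followed this mean most closely over the 14 arrays were Orm2 (r = 0.924), Ceacam2 (r = 0.919), Fgl1 (r = 0.915), Orm1 (r = 0.903) and Hsd11b1 (r = 0.897). Orm2 averaged 6.74 in fasted knockouts, 6.67 in fasted controls, 7.83 in fed knockouts and 7.02 in fed controls.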

How the data were processed

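The values came from 22 array files and a table of all arrays. Per the file headers, spot values came from Feature Extraction 10.5.1.1 of Agilent and probe positions from build mm9, while the submitters' processing notes name version 8.5.1.1. The deposited files hold spot intensity values, as medians of spot and local background and as processed signals that the software had background-subtracted and dye-normalized, and the authors' table holds log10 ratios of reference over liver, which equalled those in the array files.

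From the median intensities, ratios were computed with normexp at an offset of 50 and loess within each array (limma 3.58.1, R 4.3.3, with package data.table, version 1.17.8), control spots at weight 0, and turned to log2 of liver over reference. Local backgrounds that the software marked as outliers were replaced by the median of the array, spots marked as non-uniform or outlying were set to missing, and spots of 1 probe were averaged. No step between arrays was applied. Probes entered a fit if their liver spot was marked well above background on 4 or more newborn, 3 or more adult or, for newborn against adult, 3 or more of all arrays. No spot of a urea cycle probe was saturated.

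Newborn arrays (8) and adult arrays (14, with 4 group means) were fitted apart with lmFit and eBayes (two-sided). A fit of all 22 arrays served only the difference of newborn and adult knockout effects. Adjusted p is Benjamini-Hochberg over all probes tested, with 0.05 as the threshold. The test was tried on simulated data first. The labels call the samples biological replicates. A single channel was taken as log2 of its processed signal minus the 75th percentile of the array. The number of arrays limits the precision.

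All probes of the 8 genes were named. Of the lists (nitrogen supply and ornithine use, regulators, cell type markers) the rule names up to 3 genes with the smallest adjusted p in each direction, and for likeness the 5 genes with the highest correlation. Members and lists were chosen with earlier results of these data known. Alternatives covered the signals, background, filters, centring, slide, replicate number and each array left out. Stellate, bile duct, erythroid and endothelial markers had 0 genes passing in each knockout comparison, as had pancreas and fat markers where they were tested. For 1 listed regulator no values are reported here.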

Additional observations from a re-analysis of the deposited data

Results flagged for a closer look

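Among 46 sets of a probe and a group of 4 arrays, 2 had 1 array far from the others (4.3%), a rate that chance gives in about 1 of 20. The second Nags probe (A_52_P487436) read -0.074 on newborn wild type 1, where its spot was not well above background, and 3.86 to 4.11 on the other 3 wild-type arrays. The exon-spanning Otc probe (A_51_P126563) read 6.285 on fasted knockout 3 and 6.04 to 6.06 on the other 3 fasted knockouts.

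The knockout effect differed between newborn and fed livers for Cps1, by -1.266 (limma adjusted p = 0.00679), and for the exon-spanning Otc probe, by -1.033 (limma adjusted p = 0.0477). Neither difference passed in the liver channel alone, and newborn slides each held 1 genotype.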

How the results depend on the processing

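The count of urea cycle probes passing stayed 0 in fasted livers and for fasted minus fed under every alternative tried. With processed signals it was 1 in newborns (Cps1), 7 for fasting in controls and 0 for newborn minus fed, where it was also 0 with the liver channel alone or outlying local backgrounds kept, and 1 with 1 probe per gene, a filter on both channels, no filter or without the newborn arrays that stood apart (chosen after seeing the data). With arrays left out in turn it ran from 1 to 3. With the slide as a fixed block it was 1 in fed livers (Cps1), and with local backgrounds kept it was 3 for fasting in knockouts. For fasting in controls, Cps1 (-1.479) and the lead Otc probe (-0.949) turned with processed signals. With the liver channel alone the lead Otc probe (-0.512), the second Nags probe (-0.355) and Slc25a13 (0.039) turned. The second Nags probe kept its sign in 6 of 9 alternatives, arrays left out in turn not counted. With local backgrounds kept all 12 probes lay below 0 there, so that Slc25a15 (-0.74), Cps1 (-0.736), the lead Otc probe (-1.2), the second Nags probe (-1.235) and the dim Otc probe turned. In that setting the median log2 liver signal was 11.43 and 10.46 on fasted controls 1 and 2. It was 9.82 on newborn wild type 3 and 9.92 on newborn knockout 1. With outlying backgrounds replaced, these 4 medians were 6.88, 6.71, 7.16 and 7.11. The causes were not tested.

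The replicate numbers do not pair the samples (correlations of -0.247 to 0.496), and the replicate block changed no urea cycle call in the knockout comparisons, with Cps1 in fed livers at 0.954 (limma adjusted p = 0.112).

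Counts over all probes moved further. In newborns 280 became 498 with processed signals, 2846 with the liver channel and 0 with local backgrounds kept. In fasted livers 109 became 180 with local backgrounds kept, 6 on slide 4 alone, 57 with the replicate block and 50 without fasted knockouts 1 and 2. In fed livers 54 became 11 with local backgrounds kept, 0 on either slide alone and 26 with the replicate block. With arrays left out these counts ran from 77 to 520, 74 to 165 and 39 to 134. For fasted minus fed 3 became 13 with processed signals, 1 with the liver channel and 0 with local backgrounds kept or 1 probe per gene. For newborn minus fasted 222 became 862 with the liver channel, 15 with local backgrounds kept, 119 without the newborn and 100 without the fasted arrays that stood apart, and for newborn minus fed 194 became 2521 and 5. For fasting, 8938 in knockouts became 13575 with processed signals and 5135 with local backgrounds kept, and 9527 in controls became 5507 with local backgrounds kept and 6319 with 1 probe per gene. Weak signals limit these results most on fed arrays and where the reference spot is near its background, as for Cps1 and Otc.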
